A study of Mus musculus with 19 samples.

Results

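PPAR gamma and 9 genes of fat cell type lipid storage were followed across 19 bulk RNA sequencing libraries of mouse liver. The 10 genes are a list, not a measured cluster: the nuclear receptor Pparg, the uptake and binding genes Cd36, Fabp4 and Aqp7, the triglyceride enzyme Mogat1, the lipid droplet genes Cidea, Cidec and Plin4, and the secreted factors Cfd and Adipoq. They are 10 of the 35498 genes to which the estimated reads could be summed. They were chosen by name, with their levels in WSD against CTRL in these same libraries already known. All libraries came from liver of male mice of genotype C57Bl/J6 with a label of 24 weeks. The groups were CTRL (5 libraries), CTRL+beta-Glucan (5), WSD (5) and WSD+beta-Glucan (4). What WSD stands for is not given in the labels. The series title names oat beta-glucan, a soluble cereal fibre, the microbiota and fatty liver disease. Separate mice are not stated either, so a p-value here reflects the spread of the deposited samples and that spread may be technical.

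PPAR gamma is a nuclear receptor that binds DNA as a partner of the retinoid X receptor at direct repeats of the hexamer AGGTCA, and fatty acids and their derivatives are among its ligands. It is the main regulator of fat cell differentiation, and its level in normal liver is low. In fatty liver it is known to be raised in hepatocytes together with genes of fat cell lipid storage, including the CIDE proteins, which enlarge lipid droplets. Mice make 2 proteins from the gene: PPAR gamma 1, made in many tissues, and PPAR gamma 2, which has an additional N-terminal stretch and is typical of fat cells.

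The sequences that bear on the transcript forms and on the receptor's motif come from the reference tables, not from the libraries. In GENCODE M21 the transcript of the longer form has 505 codons before the stop, against 475 in the main transcript of the shorter form, whose coding sequence is the end of the longer one. The 90 additional coding bases are shown because most of them, with the bases before them, are among those that separate the forms in the read counts below. Capitals mark the 81 coding bases found in the PPAR gamma 2 transcript alone, and the last 9, in lower case, lie in both transcripts.
PPAR gamma 2 coding start: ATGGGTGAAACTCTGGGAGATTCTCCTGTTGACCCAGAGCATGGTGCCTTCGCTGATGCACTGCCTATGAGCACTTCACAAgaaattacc
Of the 10 genes, 8 were matched in RefSeq's promoter table (GRCm38.p6), with 12 windows of 250 bases before a start. Cidea and Fabp4 were not matched. The motif searched was AGGTCANAGGTCA on both strands with at most 2 mismatches in its 12 fixed letters, which contains the hexamer AGGTCA at each end. It occurred in 1063 of 32851 windows of that length in the table (3.236%) and in 4 of the 12 windows, which belong to Mogat1, Aqp7 (2 overlapping windows) and Cd36. A match is a description of letters, not a binding site. Starts are those of RefSeq, and for the Mogat1 and Cd36 windows no GENCODE M21 transcript of the gene began within 50 bases of that start. A window of each of these genes is shown with the match in capitals, followed by the window before the start of the PPAR gamma 2 transcript, which held no match.
Mogat1 (chr1:78510810-78511059, plus strand, match beginning 51 bases before the start): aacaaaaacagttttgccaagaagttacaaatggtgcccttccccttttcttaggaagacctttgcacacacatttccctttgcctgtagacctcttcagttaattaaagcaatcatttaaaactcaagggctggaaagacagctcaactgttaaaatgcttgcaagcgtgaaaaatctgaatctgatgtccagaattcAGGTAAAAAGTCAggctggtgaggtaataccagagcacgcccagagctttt
Aqp7 (chr4:41048137-41048386, minus strand, match beginning 56 bases before the start): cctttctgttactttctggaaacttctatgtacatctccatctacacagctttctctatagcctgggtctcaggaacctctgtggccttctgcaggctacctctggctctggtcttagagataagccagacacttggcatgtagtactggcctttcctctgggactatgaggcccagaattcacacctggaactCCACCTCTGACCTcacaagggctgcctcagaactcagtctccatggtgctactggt
Cd36 (chr5:17835897-17836146, minus strand, match beginning 63 bases before the start): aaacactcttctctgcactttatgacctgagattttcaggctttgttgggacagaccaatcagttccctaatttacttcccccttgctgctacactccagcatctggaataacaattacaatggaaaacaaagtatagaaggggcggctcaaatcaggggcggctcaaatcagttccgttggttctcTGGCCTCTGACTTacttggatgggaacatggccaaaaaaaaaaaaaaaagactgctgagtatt
Pparg, PPAR gamma 2 start (chr6:115421816-115422065, plus strand): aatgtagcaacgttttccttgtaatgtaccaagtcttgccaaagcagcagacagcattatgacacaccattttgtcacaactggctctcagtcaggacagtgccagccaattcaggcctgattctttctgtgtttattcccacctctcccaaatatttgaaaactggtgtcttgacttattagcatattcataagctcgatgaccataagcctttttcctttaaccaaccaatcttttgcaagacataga
The windows of Cidec, Plin4, Cfd, Adipoq and the other starts of Pparg also held no match. The exact hexamer AGGTCA occurred in 5 of the 12 windows and in 14.024% of all.

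Between 17253823 and 23450232 estimated reads were summed per library (median 19481377). On the second principal component of log2 CPM, with 6.68% of the variance, 3 libraries with titles beginning 37, 39 and 40 lay away from their groups. Replicate 1 of WSD+beta-Glucan scored 18.2 there against -20.2 to -6.87 in the rest of its group, and CTRL+beta-Glucan replicates 1 and 2 scored 51.8 and 18.2 against -15.9 to 0.900. The CTRL libraries were spread there too, with replicates 1 and 2 at 8.1 and 10.3 and replicates 3 to 5 at -9.62, -21.6 and -17.7. WSD+beta-Glucan replicate 2 had the most reads of Ctrb1, a pancreatic gene (514), of the epithelial and mesothelial Krt19 (992) and of Adipoq (13). CTRL replicate 4 had 73 of Ctrb1 and 217 of Krt19. Krt19 had reads in every library. Of the other pancreatic markers, Cpa1, Prss2, Pnlip and Cel had at most 3 reads in any library. Cela2a was highest in CTRL replicate 5, at 14 reads. The source of these reads was not tested. Results without the 3 libraries, and without WSD+beta-Glucan replicate 2, are given with the counts of each comparison. Levels are in CPM (counts per unit of scaled library size) unless TPM, which also divides by transcript length, is named. Hepatocyte markers were abundant in every library, with a summed level of 59946 to 169125 CPM over 11 genes. In bulk tissue, fewer cells of a type and less RNA per cell cannot be told apart.

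The first comparison asks how these genes stood under WSD. Of the 10 genes 9 passed the filter on low reads, and all 9 were higher in WSD than in CTRL with no overlap between the libraries of the groups (edgeR, adjusted p under 0.05). The list was chosen with this comparison known, and of all 13594 genes tested 53.0% were called in it, 26.0% as higher, so the count is a description and nothing is read from it. Libraries of both groups did not overlap for 38.4% of all genes tested, with WSD higher in 2714 and lower in 2507 of them. The median log2 fold change of the 9 was 2.61, and that of all genes tested was -0.04. With beta-glucan in both groups, WSD+beta-Glucan against CTRL+beta-Glucan, 8 of 9 were called higher beside a background of 34.3% called and 19.1% called higher. The count for WSD against CTRL was 9 without the 3 libraries that stand apart and 8 without WSD+beta-Glucan replicate 2, which belongs to neither group but enters the shared estimate of spread. The gene not called then was Cidec, at 1.47 against 1.48 with all libraries. For WSD+beta-Glucan against CTRL+beta-Glucan it was 8 in both cases.

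Pparg (ENSMUSG00000000440) was the least changed of the 9 genes. It stood at 9.62, 7.37, 8.80, 8.10 and 7.88 CPM in the CTRL libraries and at 5.70, 8.01, 9.61, 9.04 and 10.1 CPM in CTRL+beta-Glucan. In WSD it was at 18.6, 18.5, 14.3, 19.04 and 21.1 CPM, and in WSD+beta-Glucan at 16.3, 14.4, 18.2 and 17.6 CPM. The lowest of the 9 libraries with WSD, at 14.3 CPM, lay above the highest of the 10 others, at 10.1 CPM. The log2 fold change was 1.13 ± 0.13 (SE) for WSD against CTRL and 0.96 ± 0.14 with beta-glucan in both groups. Reads of the gene numbered 79 to 204 per library in the CTRL groups and 297 to 520 in the WSD groups.

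**Figure D1:**
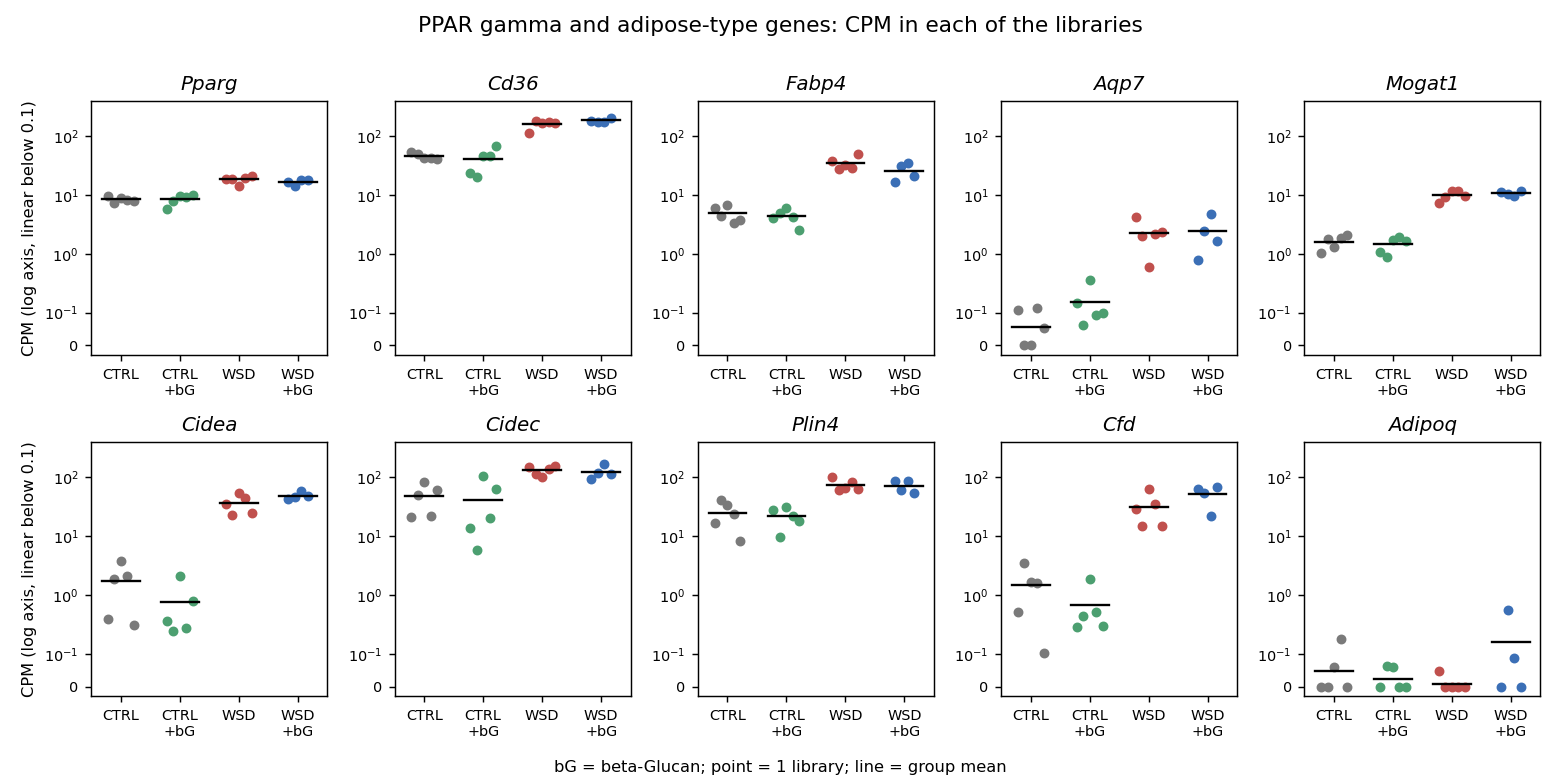
CPM of the 10 genes (vertical axis, logarithmic above 0.1 CPM and linear below) in the 4 groups (horizontal axis), with 1 point per library and a line at the group mean. For Pparg the WSD libraries lie between 14.3 and 21.1 CPM and the CTRL libraries between 7.37 and 9.62 CPM, and Adipoq is at or near 0 throughout.

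In the deposited division of reads between transcripts, which rests on a model, the rise of Pparg lay in the PPAR gamma 2 form. Reads were assigned to the PPAR gamma 2 transcript in 1 of 5 CTRL libraries, CTRL replicate 3, where they made up 19.4% of the gene's reads. In the other CTRL libraries, with 121 to 171 reads of the gene, the form was listed at 0 reads. In WSD it held 82.2%, 59.0%, 63.8%, 71.5% and 56.9% of the gene's reads, and in WSD+beta-Glucan 64.6%, 78.0%, 60.9% and 59.3%. CTRL+beta-Glucan was split: replicates 2, 4 and 5 had 27.6%, 32.2% and 35.1%, while replicates 1 and 3 were listed at 0. No library with WSD overlapped one without WSD in this share.

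The PPAR gamma 2 form averaged 0.341 ± 0.763 CPM (SD, n = 5) with CTRL and 12.2 ± 2.39 CPM with WSD. With beta-glucan added it averaged 1.73 ± 1.65 CPM beside CTRL and 10.8 ± 0.400 CPM (n = 4) beside WSD. The PPAR gamma 1 form averaged 7.99 ± 0.973 CPM with CTRL and 6.07 ± 2.24 CPM with WSD. With beta-glucan added, the averages were 6.76 ± 1.63 and 5.80 ± 1.87 CPM, and the libraries of all 4 groups overlapped. Of the 4 comparisons of the share, the one of WSD with CTRL, a difference of 62.8 percentage points, is the comparison in which the gene was chosen and is given as a description. WSD+beta-Glucan exceeded CTRL+beta-Glucan by 46.7 points (two-sided exact permutation p = 0.0159, the smallest that 4 against 5 libraries allow, adjusted p = 0.0317 over the 4 comparisons and 0.0476 over the 3 without that of WSD with CTRL). Without the 3 libraries that stand apart it was 43.7 points, and 3 against 3 libraries cannot reach the threshold (adjusted p = 0.200). Beta-glucan changed the share by 15.1 points beside CTRL (exact permutation p = 0.167, adjusted p = 0.222) and by -0.978 points beside WSD (exact permutation p = 0.921, adjusted p = 0.921). Salmon divides reads that fit both forms by a model. The PPAR gamma 2 transcript has 126 bases at its start that the main PPAR gamma 1 transcript lacks. The latter has 484 bases at its start that the former lacks. Reads that lie wholly elsewhere do not tell these transcripts apart. A share listed at 0 is a result of that division and sets no upper limit.

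**Figure D2:**
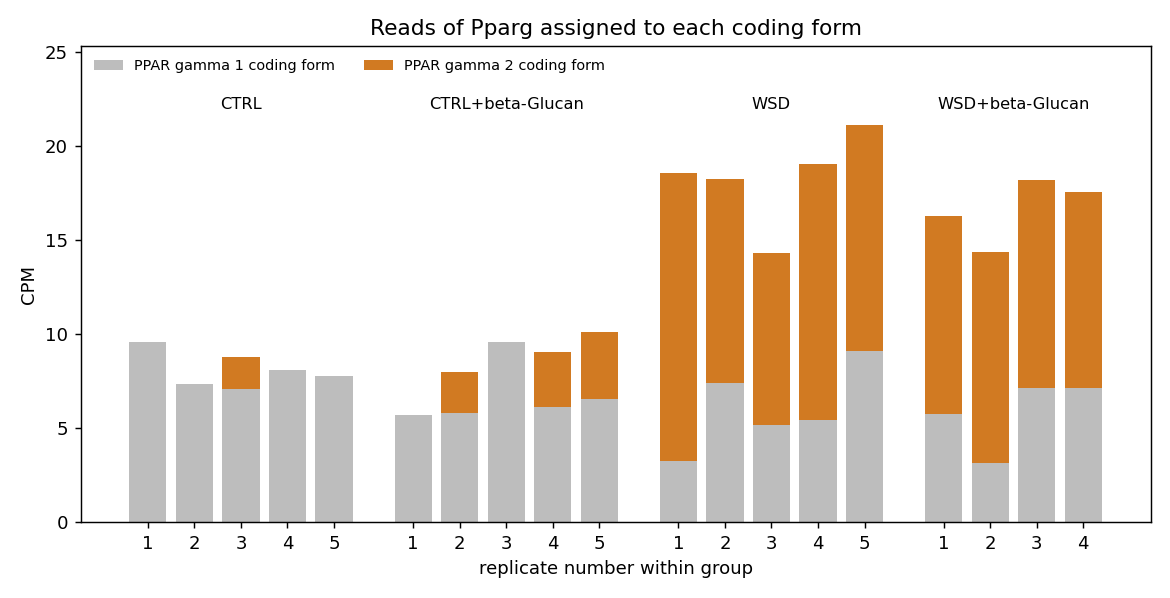
CPM of Pparg (vertical axis) in each library (horizontal axis, replicate number within its group), divided between transcripts coding for PPAR gamma 1 (grey) and PPAR gamma 2 (orange). The grey parts reach 3.16 to 9.61 CPM in all groups, and the orange parts reach 9.14 to 15.3 CPM in the WSD groups and at most 3.54 CPM in the others.

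The uptake and binding genes were all higher in WSD. Cd36 (ENSMUSG00000002944), a membrane receptor that takes up long-chain fatty acids, was at 41.0 to 54.4 CPM in CTRL and at 112 to 177 CPM in WSD, a log2 fold change of 1.80 ± 0.24. In CTRL+beta-Glucan it spread from 20.1 to 67.9 CPM, with its lowest values in replicates 1 and 2, and in WSD+beta-Glucan it was at 174 to 205 CPM. Fabp4 (ENSMUSG00000062515), a cytosolic fatty acid binding protein of fat cells, macrophages and endothelium, was at 6.07, 4.45, 6.82, 3.37 and 3.81 CPM in CTRL. In WSD it stood at 36.9, 27.6, 32.2, 28.6 and 49.6 CPM (log2 fold change 2.83 ± 0.25). In CTRL+beta-Glucan it was at 4.04, 4.84, 5.89, 4.27 and 2.57 CPM, and in WSD+beta-Glucan at 16.5, 31.0, 34.7 and 21.1 CPM. The last group overlapped WSD but reached lower.

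Aqp7 (ENSMUSG00000028427), a channel for glycerol in fat cells, was near the limit of detection without WSD. Its reads were 2, 0, 0, 2 and 1 in the CTRL libraries and 2, 1, 6, 2 and 2 in CTRL+beta-Glucan. In WSD they were 90, 48, 14, 47 and 58 and in WSD+beta-Glucan 14, 58, 110 and 39, so every library with WSD lay above all others. With 5 reads over all of CTRL, the fitted log2 fold change of 5.15 ± 0.71 depends on very few reads. It lay between 3.14 and 5.54 over 26 other settings. The WSD libraries spanned a 6.85-fold range of CPM among themselves, from 0.606 to 4.15.

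Mogat1 (ENSMUSG00000012187) encodes an acyltransferase that makes diacylglycerol from monoacylglycerol. It was at 1.01 to 2.11 CPM in CTRL and at 7.19 to 11.6 CPM in WSD. With beta-glucan added, the ranges were 0.869 to 1.90 CPM beside CTRL and 9.48 to 11.7 CPM beside WSD, so libraries with and without WSD did not overlap. The log2 fold change was 2.61 ± 0.20 for WSD against CTRL and 2.86 ± 0.21 with beta-glucan in both groups. The WSD+beta-Glucan libraries differed by 1.24-fold from lowest to highest.

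The lipid droplet genes differed in how far they moved and how much they varied. Cidea (ENSMUSG00000024526), a droplet protein of brown fat, was at 0.394, 1.89, 3.85, 2.13 and 0.309 CPM in CTRL and at 35.5, 22.5, 53.9, 44.7 and 24.4 CPM in WSD. In CTRL+beta-Glucan it was at 0.361, 0.248, 2.10, 0.278 and 0.791 CPM, and in WSD+beta-Glucan at 42.9, 46.7, 58.6 and 47.4 CPM. Every library with WSD, from 22.5 CPM upwards, lay above the highest without it, at 3.85 CPM. The log2 fold change was 4.42 ± 0.48 for WSD against CTRL and 6.02 ± 0.55 for WSD+beta-Glucan against CTRL+beta-Glucan.

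Cidec (ENSMUSG00000030278), also called FSP27, which fuses droplets in white fat and in fatty liver, already had a high level in CTRL. Its values were 21.3, 50.2, 81.9, 22.4 and 60.0 CPM in CTRL and 148, 112, 102, 138 and 156 CPM in WSD. In CTRL+beta-Glucan they ran from 5.77 CPM in replicate 2 to 106 CPM in replicate 3, an 18.4-fold range. WSD+beta-Glucan, at 92.8 to 167 CPM, overlapped that group. The log2 fold change was 1.48 ± 0.58 for WSD against CTRL and its call was lost in 13 of 26 other settings. WSD+beta-Glucan against CTRL+beta-Glucan gave 1.56 ± 0.61 and did not pass with edgeR. It passed in 4 of 26 other settings: with DESeq2, on both TPM scales and without CTRL+beta-Glucan replicate 3. Without that replicate it was 2.25 (adjusted p = 0.00780 with edgeR). Without the 3 libraries that stand apart it was 1.08 ± 0.55 (adjusted p = 0.167 with edgeR).

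Plin4 (ENSMUSG00000002831), a coat protein of nascent droplets in fat cells, was at 8.19 to 40.3 CPM in CTRL and at 61.1 to 102 CPM in WSD, a log2 fold change of 1.61 ± 0.36. CTRL+beta-Glucan lay at 9.56 to 31.5 CPM and WSD+beta-Glucan at 53.4 to 86.1 CPM. A longer coding form of Cidec, with 10 additional codons, took 14.2 ± 3.43% of the gene's reads in CTRL and 12.1 ± 2.76% in WSD, overlapping ranges. That form was picked after its values were seen. The Cidec reads therefore showed no shift between forms of the size seen in Pparg, though the difference between the genes was not tested.

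Of the secreted factors, 1 was higher with WSD and the other was close to 0 reads in all libraries but 1. Cfd (ENSMUSG00000061780), adipsin or complement factor D, a serine protease released by fat cells, was at 0.506, 3.47, 1.63, 1.60 and 0.103 CPM in CTRL and at 28.5, 14.7, 62.2, 34.7 and 15.0 CPM in WSD (log2 fold change 4.44 ± 0.61). In CTRL+beta-Glucan it was at 0.289, 0.434, 1.86, 0.510 and 0.297 CPM, and in WSD+beta-Glucan at 63.3, 53.7, 21.8 and 68.1 CPM. No library with WSD overlapped the rest. Adipoq (ENSMUSG00000022878), adiponectin, the most specific fat cell product of the list, had 0 to 3 reads in 18 of 19 libraries and 13 reads in WSD+beta-Glucan replicate 2. It did not pass the filter on low reads, and its libraries overlapped between all groups, with 4 reads in all over CTRL and 1 over WSD.

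**Figure D3:**
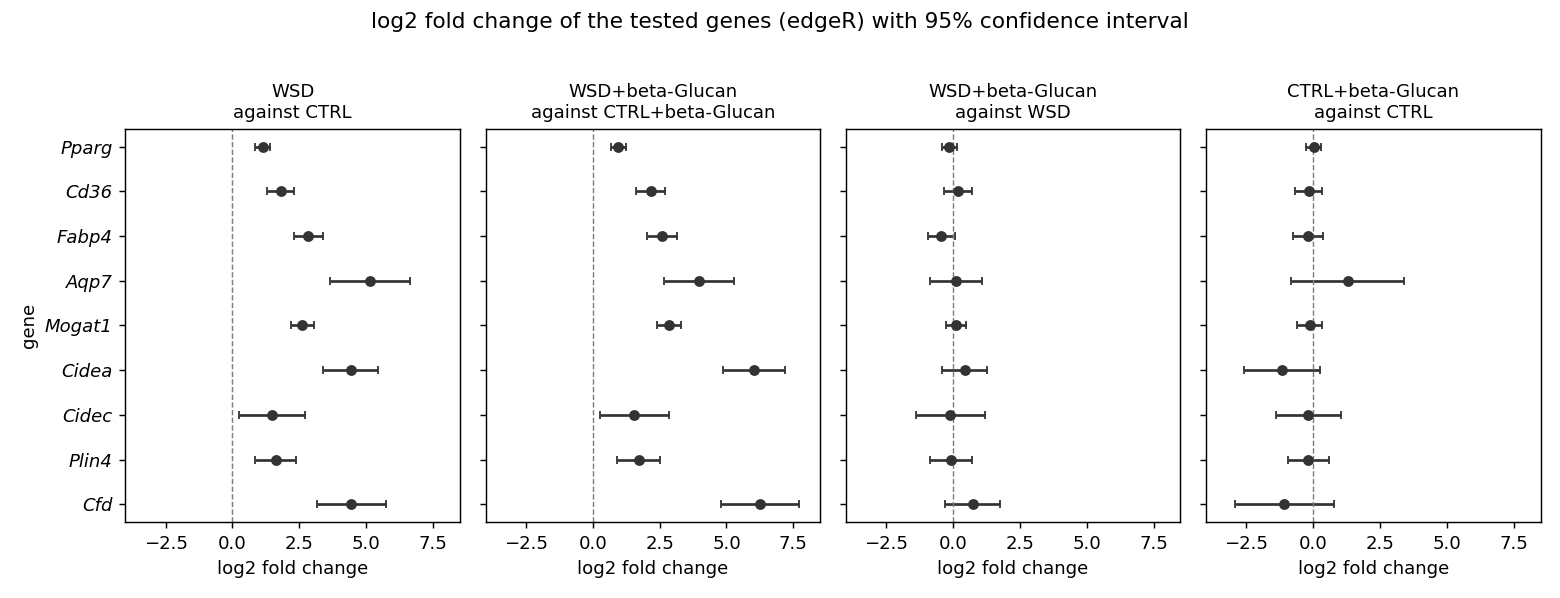
Log2 fold change (horizontal axis) of the 9 tested genes (vertical axis) in 4 comparisons, with 95% confidence intervals from the edgeR fit. In both comparisons of WSD the estimates lie between 0.96 and 6.26, and with beta-glucan every interval includes 0.

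Per length of transcript, the order of the levels changed with WSD. In CTRL the mean TPM was highest for Cidec (36.5 ± 20.3) and Cd36 (27.4 ± 3.85), followed by Fabp4 (9.81 ± 3.45), Pparg (4.87 ± 0.601), Plin4 (4.24 ± 2.31), Mogat1 (2.23 ± 0.426), Cfd (2.05 ± 1.91) and Cidea (1.77 ± 1.496). Adipoq and Aqp7 were under 0.05 TPM. In WSD Cidec (137 ± 23.2), Cd36 (129 ± 25.0) and Fabp4 (100.4 ± 28.9) led, then Cfd (58.8 ± 34.5) and Cidea (51.8 ± 16.8), and then Plin4 (17.9 ± 3.91), Mogat1 (17.1 ± 3.22), Pparg (15.9 ± 2.64) and Aqp7 (1.51 ± 0.869). By these means Cfd and Cidea stood above Pparg per length in WSD and below it in CTRL. In CTRL replicate 2, however, Cfd was above Pparg, at 5.10 against 4.40 TPM. In CTRL all neighbours in this order lay within the larger SD of each other except Cd36 and Fabp4, Fabp4 and Pparg, and Cidea and Adipoq. In WSD the exceptions were Fabp4 and Cfd, Cidea and Plin4, Pparg and Aqp7, and Aqp7 and Adipoq. In WSD+beta-Glucan Cd36 (134 ± 16.7), Cidec (120 ± 36.5) and Cfd (90.6 ± 33.7) led, with Fabp4 (68.5 ± 26.8) behind them. In CTRL+beta-Glucan the order was that of CTRL, with Aqp7 and Adipoq exchanged at the end.

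Whether beta-glucan altered these genes is the question that the series title points to. In WSD+beta-Glucan against WSD 0 of 9 genes were called, with edgeR, DESeq2 and limma, and 0 had an unadjusted p under 0.05 with edgeR. Of all genes tested edgeR called 0.390%, 0.0883% as higher and 0.302% as lower, with 2118 genes at an unadjusted p under 0.05. Fabp4 changed by -0.44 (95% interval -0.94 to 0.06, adjusted p = 0.383) and Cfd by 0.74 (-0.29 to 1.77, adjusted p = 0.479). Cidea was at 0.44 (-0.39 to 1.26), Pparg at -0.14 (-0.42 to 0.14), Cd36 at 0.20 (-0.32 to 0.73) and Mogat1 at 0.12 (-0.27 to 0.50). For Pparg, Mogat1, Cd36, Fabp4 and Plin4 (-0.08, interval -0.85 to 0.70) these intervals over all 19 libraries exclude a change of 1 log2 unit in either direction. For Cidec (-0.09, interval -1.38 to 1.19), Aqp7 (0.11, interval -0.87 to 1.09), Cidea and Cfd they do not. Without WSD+beta-Glucan replicate 2, Fabp4 was at -0.54 ± 0.27 (SE), and a fall of 1 log2 unit is then not excluded. The libraries of both groups overlapped for all 10 genes, and for all genes tested but 7.4%.

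In CTRL+beta-Glucan against CTRL 0 of 9 were called, 0 with an unadjusted p under 0.05, beside 0.00736% of all genes (775 at an unadjusted p under 0.05). Cidea changed by -1.16 (interval -2.58 to 0.26, adjusted p = 0.855), Cfd by -1.08 (-2.94 to 0.78, adjusted p = 0.877) and Aqp7 by 1.29 (-0.83 to 3.40, adjusted p = 0.873). The difference between both beta-glucan effects, tested as an interaction in the same fit, called 0 of 9 (0.00736% of all genes, 1865 of them at an unadjusted p under 0.05). It was largest for Cfd, at 1.82 (interval -0.30 to 3.94, adjusted p = 0.424), and Cidea, at 1.60 (interval -0.05 to 3.24, adjusted p = 0.377). The comparisons share the CTRL and WSD libraries with the WSD comparisons above. Without the 3 libraries that stand apart, and without WSD+beta-Glucan replicate 2, the count remained 0 in each of the 3 comparisons, and Fabp4 changed by -0.27 and -0.54 beside WSD.

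Lpl, lipoprotein lipase, which releases fatty acids for uptake and is abundant in lipid-laden macrophages, was the gene of the neighbouring pathways that beta-glucan altered beside WSD in the edgeR fit. It was at 11.1 ± 2.76 CPM in CTRL, 178 ± 14.1 in WSD and 75.9 ± 16.8 in WSD+beta-Glucan, and fell by 1.23 ± 0.16 on the log2 scale with beta-glucan beside WSD (adjusted p = 0.00238). In the same comparison 3 of 15 macrophage markers were called lower and 0 higher, beside 0.302% and 0.0883% of all genes. Their median was -0.92 and their summed levels were 663 to 784 CPM against 1045 to 1354. The part of these markers in the fall of Lpl was not tested. Fabp5, an epidermal type fatty acid binding protein, went from 16.4 ± 2.94 CPM in WSD to 7.61 ± 1.68 in WSD+beta-Glucan and did not pass (-1.11 ± 0.34, adjusted p = 0.137).

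Fat cells as a source of these transcripts were looked at through 12 adipocyte markers. Over all 19 libraries Lep, the gene of leptin, had 1 read, Ucp1, the uncoupling protein of brown fat, 1, Retn, resistin, 7, Acvr1c 7 and Plin1, the perilipin of fat cells, 16 reads. Together with Adipoq these 6 genes, picked by hand with no rule, had 0 to 5 reads in 18 libraries and 17 in WSD+beta-Glucan replicate 2. In the same libraries Cidea had 544 to 1246 reads in WSD and Cfd 356 to 1438. WSD+beta-Glucan replicate 4, with 2 reads over those 6 genes, had the most Cfd reads of all, 1618. The summed level of the 12 markers, most of it from Lipe and Adrb3, was 21.5 to 31.2 CPM in CTRL and 18.5 to 30.8 in WSD. With beta-glucan added it was 29.8 to 33.2 CPM beside CTRL and 24.7 to 29.3 beside WSD, so the sum was no higher with WSD. Since it mainly follows Lipe and Adrb3, the sum cannot show a change in the markers with few reads. Of the 4 markers that passed the filter, Slc2a4, an insulin-responsive glucose transporter, was higher in WSD (1.99 ± 0.50, adjusted p = 0.00239, edgeR). Lipe, a hormone-sensitive lipase, was lower (-0.36 ± 0.12, adjusted p = 0.0155). Trarg1 (0.95 ± 0.43, adjusted p = 0.0684) and Adrb3 (0.21 ± 0.22, adjusted p = 0.447) did not pass. Adig, another marker, had 54 reads in all, at most 11 in a library, and mean levels of 0.0337 CPM in CTRL and 0.194 in WSD. Sncg had 68 reads, at most 11 in a library, and mean levels of 0.187 CPM in CTRL and 0.129 in WSD. Nrip3 had 12 reads. On deposited TPM, where 7598 of all genes were called higher and 523 lower, 3 of the 4 markers were called higher and 0 lower. On scaled TPM 0 were called. The part of fat cells in the levels of the members was not tested beyond these reads.

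**Figure D4:**
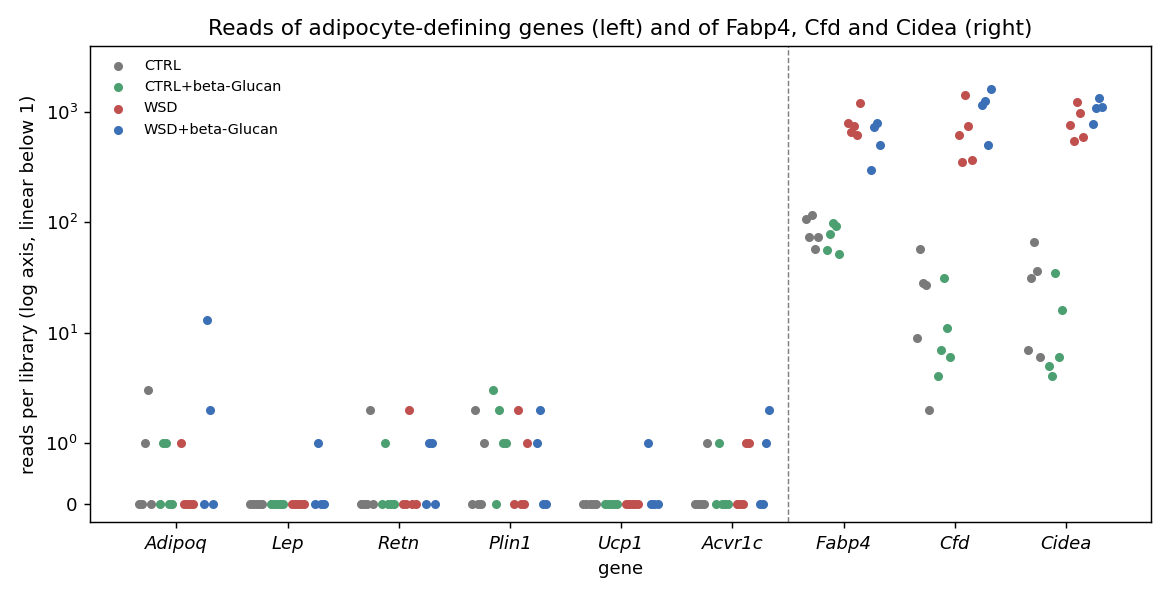
Reads per library (vertical axis, logarithmic above 1 and linear below) of 6 fat cell genes picked by hand, left of the dashed line, and of Fabp4, Cfd and Cidea, right of it, with 1 point per library coloured by group. The 6 genes stay at 0 to 3 reads apart from 13 reads of Adipoq in WSD+beta-Glucan replicate 2, while Cfd and Cidea have at least 356 and 544 reads in every library with WSD.

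Markers of other cells moved with WSD as well, beside 26.0% of all genes called higher and 27.1% called lower. All 15 macrophage markers were higher in WSD than in CTRL, with a summed level of 84.3 to 245 CPM in CTRL and 1045 to 1354 in WSD. With beta-glucan added, these sums were 77.1 to 319 CPM beside CTRL and 663 to 784 beside WSD. In the latter 3 markers were called lower and 0 higher, beside 0.302% and 0.0883% of all genes. Of 13 endothelial markers 10 were higher, with sums of 103 to 247 CPM in CTRL and 251 to 365 in WSD. Of 11 hepatocyte markers 9 were lower and 0 higher, against 5 and 1 on deposited TPM. Fabp4 and Cd36 are also expressed by macrophages and endothelium, and the part of these cells in their levels was not tested.

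Genes around the receptor were read on the count scale first, and the split of each list turned on deposited TPM, as given below. Each count stands beside 26.0% of all genes called higher and 27.1% called lower, and nothing particular to a list is read from it. Of 19 tested partners and regulators of PPAR gamma, 1 was higher and 8 lower in WSD, with a median log2 fold change of -0.19. The higher one was Srebf1, the lipogenic factor SREBP-1 (1.71 ± 0.18, adjusted p = 2.39e-07, edgeR). Rxra, the retinoid X receptor that pairs with PPAR gamma (-0.63 ± 0.10, adjusted p = 4.93e-05), Ppargc1a, its coactivator (-1.21 ± 0.25, adjusted p = 0.000407), and Ppara, the related receptor of fatty acid oxidation (-1.02 ± 0.26, adjusted p = 0.00371), were lower. Cebpa, a partner in fat cell differentiation and a hepatocyte factor, was at 230 ± 31.2 CPM in CTRL and 219 ± 19.6 in WSD and did not pass (-0.07 ± 0.11, adjusted p = 0.643).

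Of 16 other droplet genes 3 were higher and 7 lower (median -0.15). Plin3 (0.82 ± 0.12) and Fitm1, which acts in droplet formation (0.84 ± 0.14), were higher, and Pnpla2, the triglyceride lipase ATGL (-0.72 ± 0.12), lower. Plin5, a perilipin of oxidative tissue, fell by 0.72 ± 0.15. Plin2, the main droplet coat of hepatocytes, did not pass (-0.16 ± 0.13, adjusted p = 0.307), nor did Cideb, the CIDE protein of normal liver (-0.00 ± 0.08, adjusted p = 0.982). It stood at 297 ± 23.8 CPM in CTRL and 296 ± 22.4 in WSD.

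Of 14 other triglyceride synthesis genes 3 were higher and 7 lower (median -0.38), among them Gpat2 (1.54 ± 0.25) and Agpat1 (0.78 ± 0.13), acyltransferases of earlier steps, and Dgat1 (-0.48 ± 0.08), which makes triglyceride from diacylglycerol. Dgat2, the other enzyme of that step, did not pass (0.09 ± 0.10, adjusted p = 0.460). Of 19 other uptake genes 5 were higher and 11 lower (median -0.39), with Lpl at 4.01 ± 0.17 and Acsl1, which activates fatty acids, at -1.60 ± 0.20. Fabp5 was higher, at 7.68 ± 3.59 CPM in CTRL and 16.4 ± 2.94 in WSD (adjusted p = 0.00815), and Fabp1, the liver type, did not pass (-0.39 ± 0.18, adjusted p = 0.0762). With beta-glucan beside WSD, 1 of these 19 genes was called, Lpl, and 0 in each of the other 3 lists, beside 0.390% of all genes.

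With beta-glucan in both groups, 34.3% of all genes were called for WSD, against 53.0% without it, and the lists had the following counts. The partners had 2 higher and 3 lower, led by Rxrb, another retinoid X receptor (-0.27 ± 0.09), Prdm16, a brown fat regulator (1.305 ± 0.42), and Srebf1 (0.54 ± 0.18). The droplet genes had 2 higher and 3 lower, with Fitm1 at 1.096, G0s2, an inhibitor of ATGL, at -1.81 ± 0.26 and Plin3 at 0.59 ± 0.12. The triglyceride genes had 3 higher and 2 lower, with Dgat1 at -0.43 ± 0.09, Gpat2 at 1.19 ± 0.26 and Agpat2 at -0.37 ± 0.09. The uptake genes had 4 higher and 4 lower, with Lpl at 2.78 ± 0.17 and Acsl3, which activates fatty acids, at -0.88 ± 0.19. In CTRL+beta-Glucan against CTRL 0 genes of these lists were called.

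The split of these lists depended on the scale. On the deposited TPM, which carry no scaling between libraries, the median of all genes tested moved by 0.44 in WSD against CTRL (limma, 7598 genes higher and 523 lower), against -0.04 in the counts. The partners then had 8 higher and 1 lower, the droplet genes 8 and 1, the triglyceride genes 6 and 0 and the uptake genes 6 and 2. After the TMM scaling described in the methods was applied to the TPM, a choice made after these values were seen, the median was -0.03 and the lists had 2 and 7, 3 and 5, 4 and 7, and 4 and 11. The 9 members were called higher on all 3 scales.

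Among 36 pairs of the 9 tested genes, 0 Pearson correlations of log2 CPM within groups (after subtraction of group means) passed the adjustment over the 36. Cidea and Cfd had the highest, at r = 0.75 (rho = 0.74, permutation p = 0.00477, adjusted p = 0.172, 19 libraries) and 0.71 without the 2 libraries farthest from the median. Cidea and Plin4 followed, at r = 0.71 (rho = 0.66, permutation p = 0.0161, adjusted p = 0.289). Among 27 relations of the genes with the mean levels of the adipocyte, macrophage and endothelial markers 0 passed. The adipocyte mean held only the 4 of 12 markers that passed the filter, Lipe, Adrb3, Slc2a4 and Trarg1. Lep, Retn and Plin1 were not in it, so these relations do not cover them. Fabp4 with the macrophage markers had r = 0.56 (rho = 0.53, permutation p = 0.0233, adjusted p = 0.391), which was 0.42 without the 2 farthest libraries. Mogat1 with the same markers had r = -0.62 (rho = -0.65, permutation p = 0.0389, adjusted p = 0.391).

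Over the same 19 libraries, the protein-coding genes most like each member in this within-group correlation are given as a description. For Pparg they were Tceal8 (r = 0.84), Tnfsf13b (0.81) and Galc (0.81), for Cd36 Wars2 (0.90), P2ry1 (0.88) and Zfyve16 (0.88), and for Fabp4 Frs3 (0.91), Pdgfb (0.91) and Pea15a (0.89). For Cidec they were Cgref1 (0.94), Cntnap1 (0.93) and Apoa4 (0.92), an apolipoprotein at 1596 CPM in CTRL and 5069 CPM in WSD. For Cidea they were Abcf3 (0.79), Slc39a13 (0.78) and Hps1 (0.78), for Cfd Mrm1 (0.81), Prss36 (0.75) and Tnfrsf25 (0.75), and for Plin4 Dusp23 (0.83), Fam57b (0.82) and Safb (0.80). For Mogat1 they were Ythdc2 (0.88), Lig3 (0.84) and Prpf4 (0.83), and for Aqp7 Plcl2 (0.87), Smarcd1 (0.85) and Cstb (0.84). The points share their libraries and their depth, and the highest of so many correlations is high by selection.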

How the data were processed

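RNA of 19 liver libraries was measured by stranded mRNA sequencing, per the labels' protocols. Reads were quantified with Salmon 1.10.1 on GRCm39, per the submitters' processing notes, which also name DESeq2 1.38.3 with no role given. The authors deposited estimated counts (expected counts, not scaled between libraries) and TPM for 116546 transcripts. The transcript set and index options are not given in the sources used here. Of these transcripts 115977 (99.51%) were matched to GENCODE M21 (GRCm38), used for names only, and 0.0623% to 0.1095% of the reads of a library were left out.

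Estimated counts were summed per gene and rounded. Genes were filtered with filterByExpr (13594 kept), scaled between libraries by TMM (a trimmed mean of log ratios) and tested in R 4.3.3 with edgeR 4.0.16 (quasi-likelihood F test, a mean per group over all 19 libraries). Benjamini-Hochberg adjustment ran over all genes tested, at a threshold of 0.05. The SE is the log2 fold change divided by the square root of F. CPM use the TMM-scaled library sizes, and log2 CPM a prior count of 2. Shares of PPAR gamma 2 were compared by exact permutation, and correlations by 100000 permutations within groups. Alternatives used RLE, no filter, DESeq2 1.42.0, limma 3.58.1 on log2(TPM + 0.1), 2 groups only and fewer libraries, and the scripts were tested on simulated data.

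The members and gene lists were chosen with earlier results of these data known. Besides members, the text names the 3 genes per pathway list with the smallest p, 14 fixed genes, the 3 genes most like each member, and cell type markers. A gene that this rule names is not reported here. Replicates are numbered in order of deposition. No shared replicate number or animal is given, so no paired test was made.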

Additional observations from a re-analysis of the deposited data

Results flagged for a closer look

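Values were looked at in 40 sets, the 9 tested genes and the PPAR gamma 2 share in 4 groups. Of these sets 4 held a library that lay far from the others of its group by Dixon's criterion. For normally distributed values chance flags about 1 in 20, a rate that does not hold for sets with few reads or many values of 0. Cd36 in WSD replicate 1 was at 112 CPM, below the next library at 164 CPM. CTRL+beta-Glucan replicate 3 was far above its group for Aqp7, at 0.360 CPM against 0.144 in the next, and for Cfd, at 1.86 CPM against 0.510. The PPAR gamma 2 share of CTRL replicate 3 was 19.4% while the other CTRL libraries were listed at 0, where any value above 0 is flagged.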

How the results depend on the processing

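All 9 members kept their direction for WSD against CTRL in 26 other settings, and Cidec alone lost its call, in 13 of them (log2 fold change 1.29 to 1.77 when libraries were left out in turn). For WSD+beta-Glucan against WSD, DESeq2 called 94 genes higher and 342 lower over all genes against 12 and 41 with edgeR, and 3 uptake genes against 1. For the difference of both beta-glucan effects it called 13 and 126 against 0 and 1, and 0 members. Deposited TPM gave 6 triglyceride and 8 uptake genes for WSD against CTRL. For the PPAR gamma 2 share of WSD+beta-Glucan against CTRL+beta-Glucan, leaving out libraries in turn gave 42.0 to 50.8 points. With 1 of its own 9 libraries left out the adjusted p was 0.0571 to 0.0714, since fewer libraries raise the smallest p. Without the 3 libraries that stand apart it was 43.7. Against WSD the share differed by -5.08 to 2.91 points.

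Some members with no call changed sign. Without these 3 libraries, beta-glucan beside CTRL gave Cd36 0.21, Mogat1 0.13 and Cidec 0.42, beside WSD Cidec 0.020, and for the difference of both effects Cd36 -0.0013, Mogat1 -0.042, Cidec -0.40 and Plin4 -0.12. On deposited TPM, values were Aqp7 -0.066 and Mogat1 -0.10 beside WSD, Mogat1 0.084 beside CTRL, and Mogat1 -0.19 and Plin4 -0.14 for the difference. On scaled TPM they were Pparg -0.00091 and Mogat1 0.062 beside CTRL and Mogat1 -0.017 for the difference. Libraries left out in turn gave, beside WSD, Aqp7 -0.45 to 0.45, Cidec -0.28 to 0.020 and Plin4 -0.18 to 0.062. Beside CTRL they gave Cd36 -0.43 to 0.0057, Cidec -0.87 to 0.12, Mogat1 -0.25 to 0.0051, Plin4 -0.40 to 0.072 and Pparg -0.039 to 0.14, and for the difference Cidec -0.21 to 0.78 and Plin4 -0.15 to 0.33. The cause was not tested. Deposited TPM for the lists and scaled TPM were chosen after seeing the data. Depth limits Aqp7 and Adipoq, at 0 to 6 reads per library without WSD.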
